A study of Mus musculus with 28 samples.

Results

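Tail tendons of young mice that carry a Fosl2 transgene were compared with those of wild-type controls, before the age at which the model shows overt disease. The comparison used 15 of the 28 RNA-sequencing libraries of the series, 7 of WT and 8 of Fosl-2(Tg) mice, chosen by the words "WT control, Early" and "Fosl2 Tg, Early" in the sample titles, with 1 library per mouse. The other 13 libraries, from established disease at an age above 14 weeks, were used to ask where the early difference changed with disease. In the transgenic mice, exons of the murine Fosl2 gene are driven by the promoter of H2Kb, a class I gene of the major histocompatibility complex, a promoter active in most nucleated cells, with eGFP joined to it, and the construct sits at a random site of the genome. The controls were nontransgenic mice of the same breeding on the C57BL/6 background. All 15 early mice were male and 6 to 8 weeks old, whereas most established mice were female, so cohort and sex can hardly be told apart. RNA came from homogenized tail tendon fascicles, and total RNA was sequenced after removal of ribosomal RNA.

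Fosl2 belongs to the AP-1 family, transcription factors that act as dimers of Fos and Jun proteins, and mice that overexpress it are used as a model of systemic sclerosis, a disease of inflammation, vascular damage and fibrosis. Interferon-stimulated genes encode antiviral proteins and are switched on by transcription factors that bind a promoter element called ISRE. Macrophages that reside in tissue carry scavenger receptors, C-type lectins and Fc receptors, with which they bind debris, sugars and antibodies. Tendon itself is made by fibroblasts that secrete fibrillar collagen, and lipid genes are of interest because macrophages and fibroblasts both handle cholesterol and fatty acids.

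Counts summed over genes ranged from 9645598 to 42646727 in WT libraries and from 11668148 to 23859834 in Fosl-2(Tg) libraries, with medians of 19350426 and 17901692. Values per library are given below as CPM, counts scaled to 1000000 per library, after adjustment for composition with the TMM method. The defining tendon genes were present in every library: Tnmd ranged from 1112 to 2776 CPM and Scx from 54.4 to 172 CPM in WT mice. Markers of other cell types were found at varying levels. All 14 skeletal muscle markers passed the filter on low counts, and their summed level ran from 97.5 to 10142 CPM in WT and from 895 to 10440 CPM in Fosl-2(Tg) libraries. Of the 10 T-cell markers 8 stayed under 1 CPM in all 15 libraries, with Cd3d at 0, and so did 9 of the 10 B-cell and plasma-cell markers, with Igkc at 0. The TMM factor split the libraries into 8 of at least 1 (5 WT and 3 Fosl-2(Tg), 1.01 to 1.21) and 7 below 1 (WT 4 and 5 with Fosl-2(Tg) 2 to 6, 0.825 to 0.928), and the 7 had consecutive library numbers, 53 to 59. The median log2 fold changes of the skeletal muscle, interferon, macrophage, lectin, complement and class II lists differed between these sets of libraries. For collagens the median was 0.03 within factors of at least 1 and 0.02 within factors below 1, against 0.28 over all 15 libraries. For skeletal muscle the median log2 fold change was 0.45 over all 15 libraries, 1.91 within factors of at least 1 and -1.21 within factors below 1.

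The transgene could not be seen as a higher Fosl2 count at this stage. Fosl2 ranged from 49.6 to 117 CPM in WT mice (median 64.1) and from 53.7 to 134 CPM in Fosl-2(Tg) mice (median 74.7). The ranges overlapped, with 2 of 8 Fosl-2(Tg) libraries above the highest WT library. The log2 fold change was 0.20 ± 0.24 (SE), with an FDR of 0.918, where FDR is the Benjamini-Hochberg adjusted p of edgeR's quasi-likelihood test over all 15138 genes tested. H2-K1, the endogenous gene whose promoter drives the construct, had a median of 51.3 CPM in WT and 46.4 CPM in Fosl-2(Tg) mice (log2 fold change -0.13 ± 0.10, FDR = 0.885). The eGFP sequence is not among the annotated genes and was not analysed here, so the genotype rests on the sample labels.

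Only 6 genes passed an FDR of 0.05, which is 0.0396% of the genes tested, and 5 of them were lower in Fosl-2(Tg) tendon. The 5 were Oas2, Ctsc, Fcrl2, Clec4n and Mgl2, which belong to the interferon response, to lysosomal proteolysis and to the lectin and Fc receptor families of myeloid cells, while Pcyt1a was the single gene that was higher. At an unadjusted p under 0.05 the excess lay on the same side: 621 genes were lower (4.1% of those tested) and 296 were higher (1.96%). The shifts were small. Among the 621 lower genes, 323 differed by less than 0.5 on the log2 scale and 33 by at least 1, and among the 296 higher genes 208 and 28 did so. The median log2 fold change over all genes was -0.01. Of the 50 genes with the smallest p, 48 were lower in Fosl-2(Tg) mice, 14 were on the list of interferon-stimulated genes and 10 on the macrophage or lectin lists described below. Among the 15138 genes tested, 80 are on the interferon list and 169 on these lists together.

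Oas2 (chr5:120868398-120887933, minus strand, GRCm39), which makes the 2'-5' oligoadenylates that activate RNase L, had the smallest p. Its level ran from 2.76 to 5.46 CPM in WT mice (median 3.83) and from 1.00 to 2.06 CPM in Fosl-2(Tg) mice (median 1.40). Every Fosl-2(Tg) library lay below every WT library, and the gene fell by 1.46 on the log2 scale (SE 0.18, FDR = 0.00276). Ctsc (chr7:87927092-87960096, plus strand) encodes cathepsin C, a lysosomal protease that activates granule proteases of immune cells. It ran from 38.1 to 64.1 CPM in WT mice (median 52.4) and from 25.7 to 34.7 CPM in Fosl-2(Tg) mice (median 29.1). Again no library of one genotype reached the range of the other (log2 fold change -0.84 ± 0.11, FDR = 0.00276). Because whole tissue was sequenced, fewer cells of a type and less RNA per cell cannot be told apart for these genes or for those that follow.

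Fcrl2 (chr3:87156616-87181827, minus strand), an Fc receptor-like protein, ran from 4.20 to 6.61 CPM in WT and from 1.52 to 3.71 CPM in Fosl-2(Tg) mice (medians 5.73 and 2.21), again without overlap (log2 fold change -1.24 ± 0.17, FDR = 0.00711). Clec4n (chr6:123206802-123223980, plus strand), which encodes the fungal receptor Dectin-2, ran from 5.25 to 12.9 CPM in WT and from 3.27 to 5.72 CPM in Fosl-2(Tg) mice (medians 8.95 and 3.82). In Clec4n 7 of 8 Fosl-2(Tg) libraries lay below the lowest WT library (log2 fold change -1.17 ± 0.18, FDR = 0.0231). Mgl2 (chr11:70020954-70028376, plus strand), a galactose-binding lectin of macrophages and dermal dendritic cells, ran from 4.77 to 7.16 CPM in WT and from 1.86 to 5.11 CPM in Fosl-2(Tg) mice (medians 6.67 and 2.72). Fosl-2(Tg) 1 was the only Fosl-2(Tg) library inside its WT range (log2 fold change -1.14 ± 0.18, FDR = 0.0277).

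Pcyt1a encodes the rate-limiting enzyme of phosphatidylcholine synthesis. It ran from 73.2 to 89.9 CPM in WT mice (median 78.1) and from 103 to 129 CPM in Fosl-2(Tg) mice (median 120). The groups were separated by a gap, and the gene rose by 0.56 on the log2 scale (SE 0.07, FDR = 0.00276), or 1.47-fold in the means. The calls of Oas2, Ctsc, Fcrl2 and Pcyt1a stood when any 1 of the 15 libraries was left out. The call of Clec4n was kept only without WT 3, 4 or 5 or Fosl-2(Tg) 1 or 5, and that of Mgl2 only without WT 4 or Fosl-2(Tg) 1. With any other library left out the FDR lay above 0.05, at up to 0.0784 for Clec4n and 0.0878 for Mgl2. With the replicate number as a block, 11 genes passed: Fcrl2 (FDR = 0.0713) and Clec4n (FDR = 0.0890) did not, and among the added genes were Oasl2 (FDR = 0.0200), Adgre1 (FDR = 0.0200), Ifi203 (FDR = 0.0256) and Litaf (FDR = 0.0350). In that fit 1004 genes were lower and 728 higher at an unadjusted p under 0.05.

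**Figure D1:**
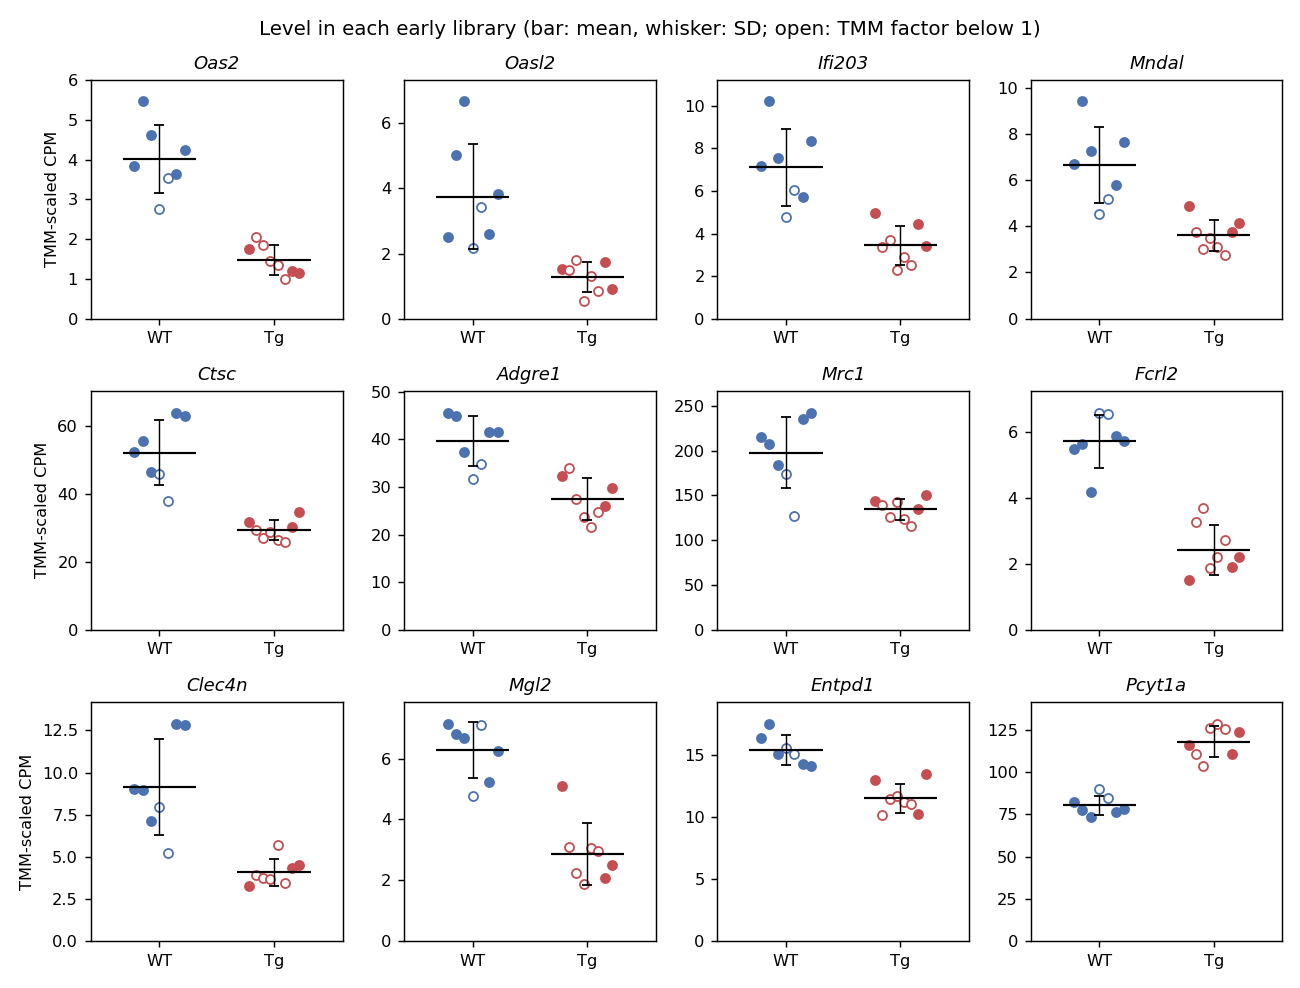
Level of 12 genes in each early library, in TMM-scaled CPM on axes that start at 0, with WT in blue and Fosl-2(Tg) in red, the group mean as a bar and its SD as a whisker. Open points are the 7 libraries with a TMM factor below 1. Oas2, Oasl2, Ctsc, Fcrl2 and Entpd1 lie lower in Fosl-2(Tg) mice with no overlap between genotypes, and Pcyt1a is the only panel in which Fosl-2(Tg) lies above.

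Genes whose 8 Fosl-2(Tg) libraries all lay outside the WT range were rare. There were 7 genes with all Fosl-2(Tg) libraries below the lowest WT library (0.0462% of the genes tested) and 2 genes with all above the highest (0.0132%). Beside Oas2, Ctsc and Fcrl2, the lower genes were Oasl2, Oas1b, Entpd1 and Nrp1. Oasl2, an oligoadenylate synthase-like antiviral protein, ran from 2.18 to 6.67 CPM in WT and from 0.541 to 1.79 CPM in Fosl-2(Tg) mice (log2 fold change -1.55 ± 0.28, FDR = 0.0687). Oas1b, an oligoadenylate synthase-related gene, ran from 0.919 to 1.91 CPM and from 0.427 to 0.842 CPM (log2 fold change -1.06 ± 0.22, FDR = 0.191). With the replicate block Oasl2 passed the threshold (FDR = 0.0200), and in a fit of all 28 libraries both did.

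The other members of that group showed small differences with little spread. Entpd1, the ectonucleotidase CD39 that breaks down extracellular ATP, ran from 14.1 to 17.6 CPM in WT and from 10.2 to 13.4 CPM in Fosl-2(Tg) mice (log2 fold change -0.42 ± 0.08, FDR = 0.104). Nrp1, a co-receptor of semaphorins and VEGF, ran from 41.1 to 51.3 CPM and from 34.7 to 40.7 CPM (log2 fold change -0.31 ± 0.07, FDR = 0.21). On the higher side, 2510009E07Rik, a gene with no established name, ran from 54.9 to 55.7 CPM in WT and from 56.03 to 65.1 CPM in Fosl-2(Tg) mice. Its log2 fold change was 0.12 ± 0.05 with an FDR of 0.775, and its WT range was narrow. Allowing 1 Fosl-2(Tg) library inside the WT range gave 36 lower genes (0.238%) and 4 higher genes (0.0264%). Of the 36, 7 were interferon-stimulated, which is 8.75% of the 80 such genes tested, against 0.238% of all genes. The count without overlap, 9 in all, grew to 23 without WT 4 (18 lower and 5 higher), to 23 without WT 5 (17 and 6), to 22 without Fosl-2(Tg) 1 (18 and 4) and to 16 without Fosl-2(Tg) 3 (14 and 2).

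Interferon-stimulated genes were mostly lower in value. Of the 106 genes listed, 80 passed the filter, and 75 of these had a negative log2 fold change, where 52.7% of all genes did. The median was -0.50, against -0.01 over all genes, and the members ranged from -1.55 to 0.29. At an unadjusted p under 0.05, 51 members were lower (63.8%, against 4.1% of all genes) and none was higher, while 1 member, Oas2, passed the FDR threshold. In 39 members (48.8%) all 8 Fosl-2(Tg) libraries lay below the WT median, as did 3.19% of all genes, and no member had all 8 above it, as did 3.15% of all genes. The summed level of the list ran from 784 to 1085 CPM in WT and from 695 to 899 CPM in Fosl-2(Tg) libraries.

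By role, all 37 sensors and antiviral effectors tested were lower in value, with a median of -0.59. Beside the Oas genes these included Rtp4 and Ifit1. Rtp4, an interferon-induced chaperone of receptors, had medians of 1.61 CPM in WT and 0.813 CPM in Fosl-2(Tg) mice (log2 fold change -0.95 ± 0.19, FDR = 0.156). Ifit1, which binds foreign RNA caps, had medians of 2.42 and 0.825 CPM (log2 fold change -0.96 ± 0.38, FDR = 0.752), and all 8 Fosl-2(Tg) libraries lay below the WT median. Isg15, a ubiquitin-like modifier, did not pass the filter: its WT median was 0.207 CPM and its Fosl-2(Tg) median 0.0775 CPM, too low for a test.

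Signalling and transcription factors had a median of -0.35 over 25 genes. At an unadjusted p under 0.05, 14 of them were lower (56%, against 4.1% of all genes). Trim30a, which restrains Toll-like receptor signalling, ran from 2.47 to 5.64 CPM in WT and from 1.92 to 3.18 CPM in Fosl-2(Tg) mice (log2 fold change -0.95 ± 0.18, FDR = 0.11). For Parp14, an ADP-ribosyltransferase, 7 of 8 Fosl-2(Tg) libraries lay below the lowest WT library (log2 fold change -0.69 ± 0.17, FDR = 0.434). Irf7, which amplifies type I interferon production, had a log2 fold change of -0.80 ± 0.28 (FDR = 0.658), and 6 of 8 Fosl-2(Tg) libraries lay below its WT median.

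The interferon-inducible GTPases, which attack the vacuoles of intracellular pathogens, had a median of -0.58 over 11 genes, with Gbp7 at -0.58 ± 0.14 (FDR = 0.434), Gbp3 at -0.77 ± 0.21 (FDR = 0.496), Gbp6 at -1.02 ± 0.32 and Iigp1 at -1.35 ± 0.41 (FDR = 0.624 for both). The Ifi200 family, cytosolic DNA sensors and their relatives, had a median of -0.63 over 7 genes, all negative. At an unadjusted p under 0.05, 6 of the 7 were lower (85.7%, against 4.1% of all genes). Ifi203 ran from 4.77 to 10.2 CPM in WT and from 2.29 to 4.95 CPM in Fosl-2(Tg) mice (log2 fold change -1.04 ± 0.19, FDR = 0.0687). Mndal ran from 4.54 to 9.40 CPM and from 2.77 to 4.87 CPM (log2 fold change -0.88 ± 0.16, FDR = 0.0696), and Ifi204 had a log2 fold change of -0.93 ± 0.23 (FDR = 0.405). Members of this family share sequence, so reads may have been split between them.

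The interferons themselves, their receptors and the sensors upstream of them had a median of -0.08 over 17 tested genes. The 3 that were lower at an unadjusted p under 0.05 (17.6%, against 4.1% of all genes) were the nucleic acid sensors of that list: Tlr9 (-0.84 ± 0.20, FDR = 0.342), Tlr7 (-0.31 ± 0.13, FDR = 0.771) and Cgas (-0.47 ± 0.20, FDR = 0.787).

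**Figure D2:**
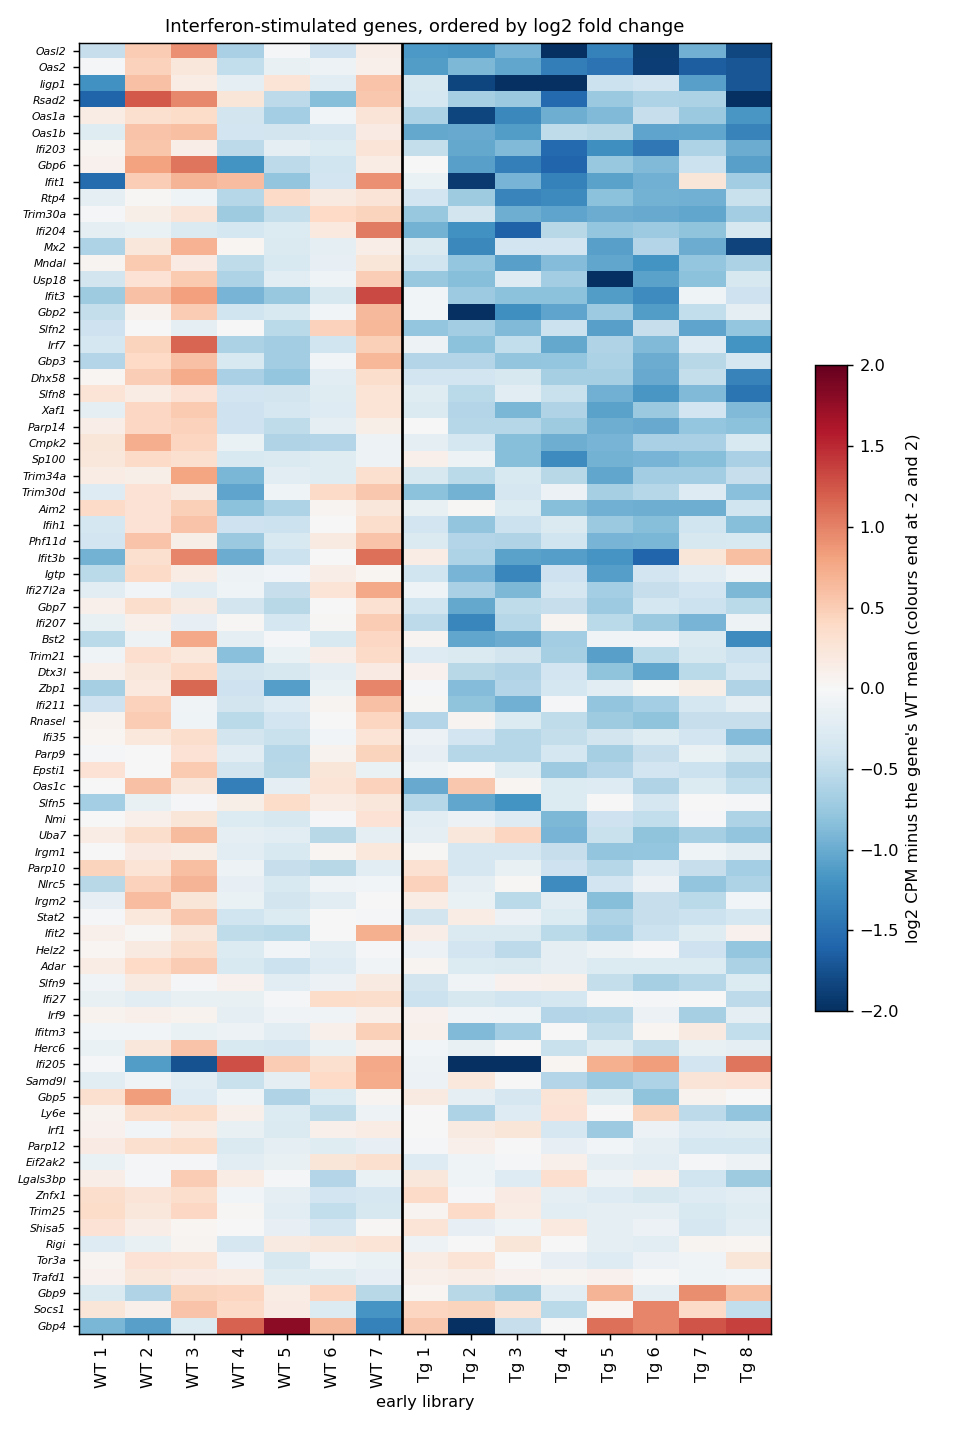
Log2 CPM of 79 of the 80 tested interferon-stimulated genes (rows, ordered by log2 fold change) in the 15 early libraries (columns, WT left of the line), each minus the mean of the gene in WT libraries; colours end at -2 and 2. Blue, a lower level, fills most rows in the 8 Fosl-2(Tg) columns, with the palest blue in Fosl-2(Tg) 1, and WT 4 and 5 are also pale blue in most rows.

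The promoters of the interferon-stimulated genes were read to show what the members share in sequence. A window from 250 bases before to 50 bases after the start of the canonical transcript (GENCODE M39, GRCm39) was searched on both strands for the core of the ISRE, TTTCNNTTTC. It was present in 38 of the 80 tested members (47.5%) and in 3.53% of the 15086 tested genes that had a window. It was present in 27 of the 51 members that were lower at an unadjusted p under 0.05 (52.9%) and in 11 of the other 29 (37.9%). The AP-1 site TGANTCA, which reads the same on both strands, was present in 16.2% of the list and in 5.68% of all genes with a window, and the STAT site TTCNNNGAA in 16.2% and 7.64%. In pan-macrophage genes the ISRE core was found in 2 of 31 windows (6.45%). The windows below are shown for some of the members named above. Each holds 30 bases on the gene's own strand, with an ISRE core on either strand in capitals.
Oas2, chr5:120887970-120887999, minus strand: cacacttgagTTTCGATTTCctaggttcct
Ifi203, chr1:173770074-173770103, minus strand: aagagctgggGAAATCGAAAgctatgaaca
Mndal, chr1:173707770-173707799, minus strand: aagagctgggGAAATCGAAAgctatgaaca
Ifi204, chr1:173594627-173594656, minus strand: caaagccaggGAAATTGAAAgctatgaacg
Trim30a, chr7:104114417-104114446, minus strand: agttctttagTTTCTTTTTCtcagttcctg
Rtp4, chr16:23428611-23428640, plus strand: gacagaccggGAAATGGAAActgaaagaac
Oas1b, chr5:120950668-120950697, plus strand: cccttcccggGAAATGGAAActgaaagtcc
Gbp7, chr3:142236034-142236063, plus strand: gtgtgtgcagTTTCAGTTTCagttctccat

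In Oas2 the element begins 56 bases before the start, in Ifi203 57 bases, in Mndal 54 bases and in Ifi204 36 bases, whereas in Gbp7 it begins at the start itself. The windows of Ifi203 and Mndal are identical over the 30 bases shown. In Rtp4 and Oas1b a second copy overlaps the one in capitals, and in Rtp4 further copies begin 51 and 2 bases before the start. A match describes the letters only, and no binding was measured.

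Macrophage genes were mostly lower in value too. All 31 pan-macrophage genes passed the filter, 29 had a negative log2 fold change and the median was -0.40. Of these, 18 were lower at an unadjusted p under 0.05 (58.1%, against 4.1% of all genes), none was higher and none passed the FDR threshold. The summed level ran from 1123 to 1743 CPM in WT and from 983 to 1516 CPM in Fosl-2(Tg) libraries, so the ranges overlapped. Adgre1, which encodes the macrophage surface protein F4/80, ran from 31.7 to 45.6 CPM in WT (median 41.6) and from 21.5 to 34.1 CPM in Fosl-2(Tg) mice (median 26.7). In Adgre1 6 of 8 Fosl-2(Tg) libraries lay below the lowest WT library (log2 fold change -0.53 ± 0.11, FDR = 0.15, and 0.0200 with the replicate block).

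Other myeloid surface genes showed shifts of similar size. Cd300a, an inhibitory receptor, had a log2 fold change of -0.82 ± 0.19 (FDR = 0.342), and 7 of its 8 Fosl-2(Tg) libraries lay below the lowest WT library. Cd53, a leukocyte tetraspanin, was at -0.53 ± 0.13 (FDR = 0.434), Itgam, the integrin CD11b, at -0.42 ± 0.13 (FDR = 0.624) and Aif1, an actin-binding protein of macrophages, at -0.62 ± 0.16 (FDR = 0.442). Csf1r, the receptor for the macrophage growth factor CSF-1, ran from 167 to 329 CPM in WT and from 128 to 246 CPM in Fosl-2(Tg) mice (log2 fold change -0.46 ± 0.17, FDR = 0.748). Cd68, a lysosomal glycoprotein, did not share the shift, at -0.11 ± 0.14 (FDR = 0.921) with 5 of 8 Fosl-2(Tg) libraries below the WT median.

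Among genes of resident or alternatively activated macrophages, 24 of 34 passed the filter, with a median of -0.30. At an unadjusted p under 0.05, 10 of the 24 were lower (41.7%, against 4.1% of all genes). The 12 scavenger receptors and lectins of this list were all lower in value (median -0.47), and the 12 secreted factors and enzymes less uniformly (median -0.24, 8 negative). Mrc1, the mannose receptor, ran from 127 to 243 CPM in WT (median 207) and from 116 to 151 CPM in Fosl-2(Tg) mice (median 138). All 8 Fosl-2(Tg) libraries lay below the WT median, and 3 below the lowest WT library, which was WT 5 (log2 fold change -0.56 ± 0.12, FDR = 0.191). Cd163, the haemoglobin scavenger receptor, ran from 31.0 to 46.1 CPM and from 22.8 to 36.4 CPM, with 7 of 8 Fosl-2(Tg) libraries below the lowest WT library (log2 fold change -0.38 ± 0.11, FDR = 0.52). Cbr2, a carbonyl reductase, was at -0.55 ± 0.15 (FDR = 0.459), F13a1, the coagulation factor XIII subunit that crosslinks fibrin, at -0.51 ± 0.17 (FDR = 0.647) and Pf4, a chemokine stored by platelets and macrophages, at -0.59 ± 0.20 (FDR = 0.658).

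Lectins and Fc receptors gave 3 of the 6 genes past the FDR threshold, Fcrl2, Clec4n and Mgl2, in a list of which 41 of 82 genes passed the filter. The median was -0.33 and 35 members were negative. At an unadjusted p under 0.05, 13 were lower (31.7%, against 4.1% of all genes) and none was higher. This list shares 10 genes with the resident macrophage list and 2 with the pan-macrophage list, so the counts are not independent. The galactose- and mannose-binding lectins had the lowest median, -0.61 over 5 genes, and the galectins the one nearest 0, -0.03 over 5 genes. Clec5a, which signals through DAP12, was at -0.61 ± 0.17 (FDR = 0.496), Clec10a, the paralogue of Mgl2, at -0.64 ± 0.26 (FDR = 0.775) and Siglece, an inhibitory sialic acid receptor, at -0.66 ± 0.23 (FDR = 0.658). Clec10a and Mgl2 are similar in sequence, so their counts may share reads.

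The Fc receptors had a median of -0.43 over 7 genes, all negative. Fcgr2b, the inhibitory IgG receptor, ran from 17.6 to 22.9 CPM in WT and from 12.7 to 19.6 CPM in Fosl-2(Tg) mice (log2 fold change -0.31 ± 0.10, FDR = 0.624). Fcer1g, the signalling chain that many of these receptors use, was at -0.49 ± 0.13 (FDR = 0.442), and Fcgr1 at -0.58 ± 0.23 (FDR = 0.767). Siglec1, a sialoadhesin of interferon-exposed macrophages, was at -0.23 ± 0.22 (FDR = 0.91) with 5 of 8 Fosl-2(Tg) libraries below the WT median.

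Lipid genes showed no common shift. Of 111 listed, 99 passed the filter, the median was 0.06, and 2 were lower and 2 higher at an unadjusted p under 0.05, 2.02% each way. The lower members were Cd36, a fatty acid transporter and scavenger receptor (log2 fold change -0.45 ± 0.16, FDR = 0.666), and Apod, a lipocalin (-0.60 ± 0.26, FDR = 0.79). Cd36 ran from 34.2 to 54.1 CPM in WT and from 20.4 to 43.9 CPM in Fosl-2(Tg) mice, with 5 of 8 Fosl-2(Tg) libraries below the lowest WT library. The higher members belong to cholesterol synthesis: Hsd17b7 at 0.33 ± 0.11 (FDR = 0.658) and Fdft1, which makes squalene, at 0.19 ± 0.09 (FDR = 0.818). Of the 24 genes of cholesterol synthesis and uptake 5 were negative, with a median of 0.11. Pparg, the regulator of fat storage, was at -0.40 ± 0.35, Lpl, which frees fatty acids from lipoproteins, at -0.19 ± 0.13 and Apoe, a lipid carrier, at -0.07 ± 0.21 (FDR between 0.857 and 0.972). Pcyt1a, whose product makes a membrane lipid, was not on this list.

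Collagen genes were higher in value, and their median differed with the libraries compared. Of 43 collagens 35 passed the filter, with a median of 0.28, 5 higher (14.3%, against 1.96% of all genes) and 1 lower (2.86%, against 4.1%) at an unadjusted p under 0.05. All 11 fibrillar collagens were positive (median 0.45). Col24a1 was at 0.71 ± 0.24 (FDR = 0.647), Col11a1, a regulator of fibril diameter, at 0.48 ± 0.20 (FDR = 0.767), Col5a2 at 0.33 ± 0.15 (FDR = 0.818) and Col3a1 at 0.50 ± 0.26 (FDR = 0.834). Col1a1, the main tendon collagen, was at 0.53 ± 0.34 (FDR = 0.853). The median was 0.03 within the 8 libraries with a TMM factor of at least 1 and 0.02 within the other 7, and it was 0.50 in libraries numbered 49 to 57 (3 WT, 6 Fosl-2(Tg)) but -0.18 in those numbered 58 to 63 (4 WT, 2 Fosl-2(Tg)).

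Tendon identity genes had a median of -0.01 over 23 genes, with none past an unadjusted p of 0.05 in either direction. Tnmd, the tendon membrane protein tenomodulin, was at -0.09 ± 0.21 (FDR = 0.961) and Scx, the tendon transcription factor scleraxis, at 0.13 ± 0.24 (FDR = 0.948). In the AP-1 family no gene of 16 passed an unadjusted p of 0.05 (median 0.05): Jun was at 0.47 ± 0.28, Fos at 0.50 ± 0.48 and Junb at -0.03 ± 0.26 (FDR between 0.846 and 0.986). Atf4, a stress-response factor that can pair with AP-1 proteins, was at 0.23 ± 0.11 (FDR = 0.828), and all 8 of its Fosl-2(Tg) libraries lay above the WT median.

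Antigen presentation genes differed by class and, for class II, by the libraries compared. In the class I list, 7 of 22 tested genes were lower (31.8%, against 4.1% of all genes) and 1 was higher (4.55%, against 1.96%) at an unadjusted p under 0.05, with a median of -0.19. The lower ones include the peptide transporter Tap1 (-0.72 ± 0.25) and the immunoproteasome subunits Psmb8 (-0.72 ± 0.25) and Psmb9 (-0.88 ± 0.32), all interferon-inducible (FDR between 0.658 and 0.727). Tap1 ran from 7.098 to 10.87 CPM in WT 1 to 3 but from 3.336 to 4.25 CPM in WT 4 to 7. The latter values lay inside its Fosl-2(Tg) range of 2.42 to 4.553 CPM. Psmb8 ran from 2.418 to 2.985 CPM in WT 1 to 3 and from 1.152 to 1.668 CPM in WT 4 to 7. Its Fosl-2(Tg) range was 0.6615 to 1.837 CPM. Psmb9 was highest in WT 2 and 3, at 2.328 and 2.565 CPM, and reached 1.082 CPM in Fosl-2(Tg) mice. In the class II list, 8 of 12 genes passed the filter, 4 were higher at an unadjusted p under 0.05 (50%, against 1.96% of all genes), none was lower and 3 had a negative log2 fold change. The median was 0.72, but it was -0.23 in libraries numbered 58 to 63, 1.39 in those numbered 49 to 57, -0.22 with erythroid and keratinocyte covariates and 0.05 with the pan-macrophage covariate. It was 0.28 within TMM factors of at least 1 and 0.45 within factors below 1. Cd74, the invariant chain of class II molecules, had medians of 2.05 CPM in WT and 6.38 CPM in Fosl-2(Tg) mice, with ranges of 1.34 to 8.56 and 3.37 to 21.3 CPM. Its log2 fold change was 1.56 ± 0.56 (FDR = 0.674), beside H2-Aa at 1.68 ± 0.62, H2-Ab1 at 1.48 ± 0.61 and H2-Eb1 at 1.41 ± 0.60 (FDR between 0.728 and 0.785).

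The class II genes also differed between libraries of 1 genotype: the list's median deviation from the WT mean was 0.99 and 0.53 on the log2 scale in WT 4 and 5 and at most -0.10 in the other WT libraries. It was 0.19 to 1.70 in Fosl-2(Tg) 2 to 6 and -0.04 to 0.12 in Fosl-2(Tg) 1, 7 and 8. Ccr2, the chemokine receptor of inflammatory monocytes, was above the highest WT library in Fosl-2(Tg) 2 to 6 and in no other, with medians of 1.81 CPM in WT and 6.12 CPM in Fosl-2(Tg) mice (log2 fold change 1.59 ± 0.46, FDR = 0.564). In contrast to these, complement genes were lower in value (median -0.28 over 21 genes, 5 or 23.8% lower at an unadjusted p under 0.05, against 4.1% of all genes), among them the anaphylatoxin receptor C5ar1 (-0.65 ± 0.15, FDR = 0.325) and C1qa (-0.44 ± 0.14, FDR = 0.624). The complement median was -0.42 within TMM factors of at least 1 and 0.01 within factors below 1. The chemokine Cxcl16, which is also a scavenger receptor, was at -0.45 ± 0.12 (FDR = 0.459).

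The shift of the immune lists was seen library by library. The median deviation of the 80 interferon-stimulated genes from their WT means ran from -0.31 to 0.34 in WT and from -0.66 to -0.12 in Fosl-2(Tg) libraries, and 7 of the 8 Fosl-2(Tg) values lay below the lowest WT value. The exception was Fosl-2(Tg) 1, at -0.12. For pan-macrophage genes 5 of 8, for resident macrophage genes 7 of 8 and for lectins and Fc receptors 3 of 8 Fosl-2(Tg) values lay below the lowest WT value. The lowest WT values of the interferon and lectin lists came from WT 4 and 5, which share the low TMM factors of Fosl-2(Tg) 2 to 6.

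**Figure D3:**
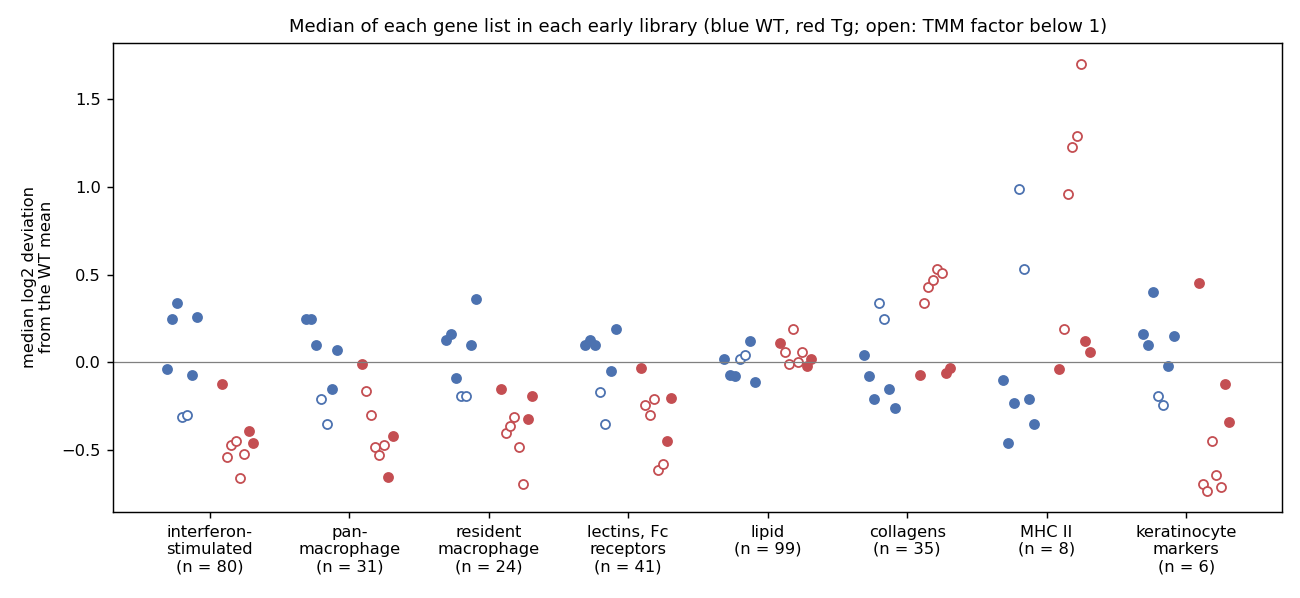
Median deviation of each gene list from the WT mean, on the log2 scale, in each early library, with WT in blue and Fosl-2(Tg) in red and the number of genes tested under each name. Open points are the 7 libraries with a TMM factor below 1. Interferon-stimulated genes lie lower in 7 of 8 Fosl-2(Tg) libraries than in any WT library, whereas collagens and class II genes are high in the open points of both genotypes.

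The size of the immune shift depended on which libraries were compared. Within the 8 libraries with a TMM factor of at least 1 the median of the interferon list was -0.54, with 37 of 84 members tested lower and 1 higher at an unadjusted p under 0.05. Of all 15424 genes tested in that fit, 523 were lower and 524 higher at that threshold. Within the other 7 libraries, where only 2 are WT, the interferon median was -0.14, with 8 of 80 members tested lower and none higher. Of all 15498 genes tested there, 239 were lower and 147 higher. The pan-macrophage medians in these comparisons were -0.42 and -0.12. With the log2 TMM factor as a covariate over all 15 libraries the interferon median was -0.30 and the lectin median -0.17. With the skeletal muscle level as a covariate the interferon median was -0.41 and the pan-macrophage median -0.25. At an unadjusted p under 0.05, 12 of 31 pan-macrophage genes were lower in that fit, in place of 18. Over all 15138 genes tested, 318 were lower, in place of 621. By library number the interferon medians were -0.62 (numbers 49 to 57) and -0.39 (numbers 58 to 63), and the pan-macrophage medians -0.53 and -0.38. With a term for these runs of library numbers 68 genes passed an FDR of 0.05, among them all 6 above and 9 interferon-stimulated genes.

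Markers of several other cell types were also lower in value in Fosl-2(Tg) mice. The counts below stand beside 4.1% of all genes that were lower at an unadjusted p under 0.05. Of 10 dendritic cell markers 3 were tested, all negative (median -0.52), with 2 lower at an unadjusted p under 0.05 and a summed level of 9.62 to 18.3 CPM in WT and 7.87 to 13.8 CPM in Fosl-2(Tg) libraries. All 7 tested Schwann cell markers were negative (median -0.44), none at an unadjusted p under 0.05. Ighm, the immunoglobulin heavy chain of B cells and the only tested B-cell marker, was at -1.08 ± 0.50 (FDR = 0.818). The summed level of the keratinocyte list ran from 31.9 to 85.2 CPM in WT and from 29.1 to 84.3 CPM in Fosl-2(Tg) libraries (medians 65.6 and 35.3), with 3 of 6 tested markers lower at an unadjusted p under 0.05 and Krt1 at 0. Of the 10 erythroid markers, 5 were tested, 4 were negative (median -0.35) and 2 were lower at an unadjusted p under 0.05. The summed level of the erythroid list had medians of 25.2 CPM in WT and 22.14 CPM in Fosl-2(Tg) libraries. Hbb-bs had a median of 3.04 CPM in WT and 0.628 CPM in Fosl-2(Tg) mice (log2 fold change -2.27 ± 0.58, FDR = 0.442). Its WT range, 0.1399 to 9.713 CPM, held every Fosl-2(Tg) library (0.5003 to 1.757 CPM). With the levels of both marker lists as covariates no gene passed the FDR threshold (178 lower and 45 higher at an unadjusted p under 0.05), and the interferon median was -0.31. With the pan-macrophage level as a covariate no gene passed either (756 lower and 838 higher at an unadjusted p under 0.05), and the interferon median was -0.18, with 17 members lower and 3 higher at an unadjusted p under 0.05. Beyond these fits, the part of these cell types in the result was not tested.

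In established disease the immune lists no longer showed the early shift. Whether the genotype effect differed between cohorts was tested by the interaction term of a fit of all 28 libraries, in which 1195 of 16082 genes passed an FDR of 0.05 (7.43%). Of the 80 interferon-stimulated genes, 24 passed (30%), all in the direction of a higher effect in established mice. The difference contains the early effect, which was negative in 75 of the 80, so its direction is no separate result. The same holds for the other lists below, which were also chosen with earlier results known. In established mice the median log2 fold change of the interferon list was 0.14. Oas2 was at -0.04 ± 0.16 in established mice (FDR of the difference 0.00198) and Oasl2 at -0.11 ± 0.18 (0.0149), whereas Gbp7 was at 0.73 (0.00498) and Oas1b at 0.65 ± 0.18 (0.00198). Of the pan-macrophage genes 7 of 31 (22.6%) and of the resident macrophage genes 10 of 24 (41.7%) passed, against 7.43% of all genes. All of them had a higher effect in established mice.

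Single macrophage genes had values of opposite sign in the cohorts, where the test was of the difference and not of either sign. Of the macrophage genes below, only Mgl2 passed the early FDR threshold. The early value of Siglec1, -0.23 ± 0.22, was about as large as its SE. Cd163 was at -0.38 early and 1.07 in established mice (FDR of the difference 6.74e-05), Fcgr2b at -0.31 and 1.46 (0.000266), Siglec1 at -0.23 and 1.63 (0.00198) and Mgl2 at -1.14 and 1.70 (0.00399). Collagens differed the other way: 11 of 35 passed (31.4%, against 7.43% of all genes in that fit), all with a lower effect in established mice. The list's median there was -0.62, and Col1a1 was at 0.53 early and -2.50 in established mice (FDR of the difference 0.0130). For Apod the effects were -0.60 and 1.59 (0.00312). Since sex and cohort can hardly be told apart, these differences cannot be assigned to one of them. Without the 2 established male mice 725 genes passed the interaction test.

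**Figure D4:**
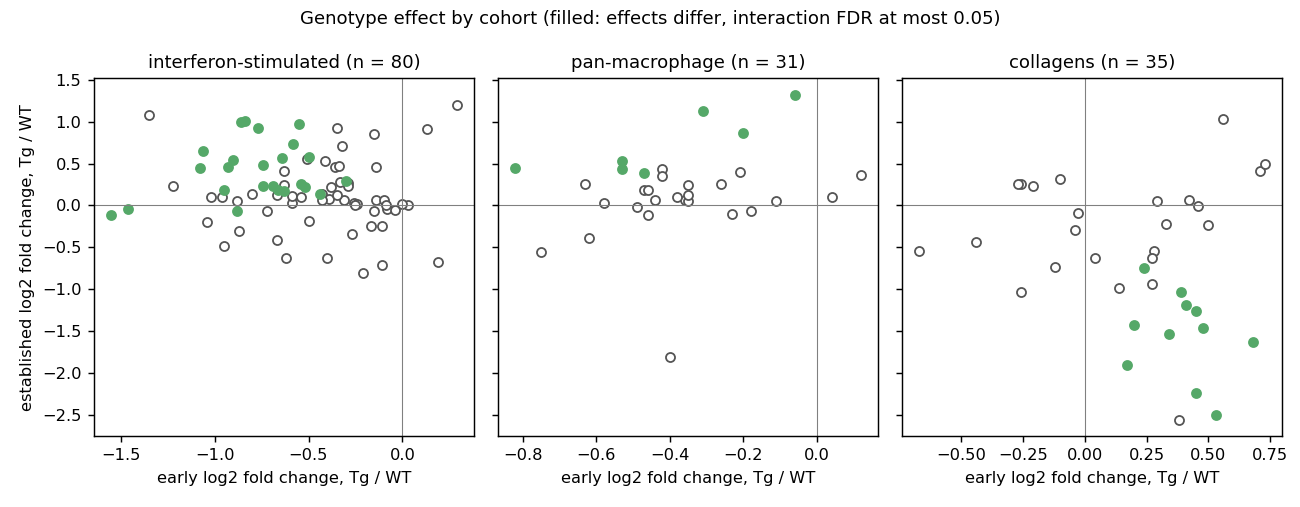
Log2 fold change of Fosl-2(Tg) over WT in the early cohort (horizontal) and the established cohort (vertical) for the tested members of 3 lists, with filled points where the effects differ at an interaction FDR of at most 0.05. All 24 filled interferon-stimulated and 7 filled pan-macrophage genes are lower early than later, and all 11 filled collagens are higher early than later.

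A few genes kept their early direction. Of 217 genes with an early p under 0.01 tested in both cohorts, 18 also passed an FDR of 0.05 in established mice. Of these 18, 6 kept their direction and the others had the opposite one. The share of all genes that passed in established mice is not given here, so 18 of 217 cannot be read as an excess. The 6 were Pcyt1a, Clec4n, Litaf, Slc51a, Saa3 and Atp6v0d2, of which the last 4 were named after their values were seen. Pcyt1a was at 0.41 ± 0.08 in established mice (FDR = 0.0168) and Clec4n at -0.90 ± 0.25 (FDR = 0.0477). Litaf, a regulator of endosomal sorting, ran from 6.28 to 19.2 CPM in early WT and from 14.4 to 23.6 CPM in early Fosl-2(Tg) mice (medians 7.25 and 18.7). WT 4, at 19.2 CPM, was far above the other WT libraries (log2 fold change 1.06 ± 0.21, FDR = 0.15), and the established effect was 1.40 ± 0.30 (FDR = 0.0209). Saa3, an acute-phase protein, was at -0.94 ± 0.28 early and -1.89 ± 0.52 later (FDR = 0.594 and 0.0466), and Atp6v0d2, a proton pump subunit of osteoclasts and macrophages, at 1.05 ± 0.33 and 2.53 ± 0.49 (FDR = 0.624 and 0.0153).

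Pcyt1a and Slc51a are neighbours on chromosome 16. Pcyt1a (ENSMUSG00000005615) lies at chr16:32249426-32294242 on the plus strand and Slc51a, a bile acid and steroid transporter subunit, at chr16:32293322-32306842 on the minus strand of GRCm39. Their annotated ends overlap by 921 bases, and without a stated strand setting reads from that stretch cannot be assigned to one of them. Slc51a ran from 5.25 to 7.95 CPM in early WT and from 7.51 to 10.4 CPM in early Fosl-2(Tg) mice, with 6 of 8 Fosl-2(Tg) libraries above the highest WT library (log2 fold change 0.40 ± 0.11, FDR = 0.496). In established mice it was at 0.57 ± 0.14 (FDR = 0.0324). The other 20 tested genes that start within 500000 bases had early log2 fold changes between -0.49 and 0.26, and 1 of them passed an unadjusted p of 0.05. That gene, Nrros (named after its value was seen), which is expressed in macrophages and microglia, was at -0.49 ± 0.16. In established mice Cep19 (log2 fold change -0.41 ± 0.09, FDR = 0.0264) and Dynlt2b (0.59 ± 0.13, FDR = 0.0232) in the same window also passed the threshold, at early values of 0.04 and 0.08, and both were named after their values were seen.

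**Figure D5:**
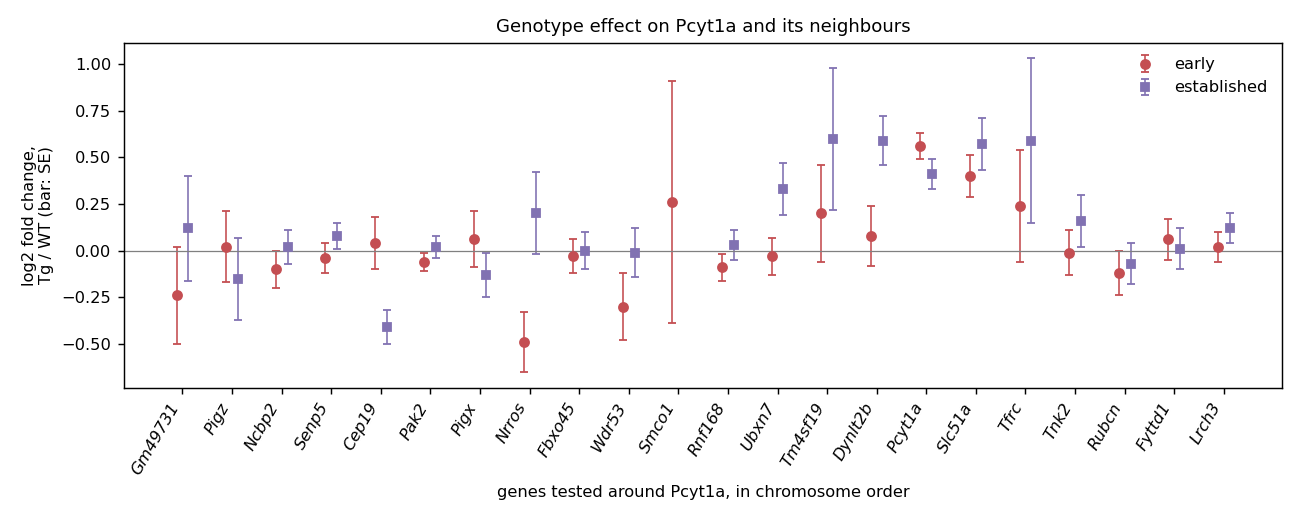
Log2 fold change of Fosl-2(Tg) over WT, with its SE, for the 22 genes tested around Pcyt1a in chromosome order, early in red circles and established in purple squares. Pcyt1a and Slc51a lie above 0 in both cohorts, and the early values of the other 20 genes lie between -0.49 and 0.26.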

How the data were processed

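RNA was measured in 28 tail tendon libraries, of which the 15 of the early cohort enter the main comparison. The authors aligned reads with STAR to GRCm39, counted them per gene with featureCounts and deposited raw counts for each library; whether reads were counted by strand, and the tool versions, are not given in the sources used here. Groups were taken from the sample titles. The tests, lists and named genes were chosen with earlier results of these data known. By rule, the genes named are Fosl2 and H2-K1, every gene past the FDR threshold, in each direction the 8 genes of smallest p without overlap between genotypes, up to 4 members of each list and role with the smallest p, and a few fixed members of the interferon, macrophage, lectin, lipid, tendon and AP-1 lists. Slc51a, Litaf, Saa3, Atp6v0d2, Nrros, Cep19 and Dynlt2b, and the markers given as being at 0, were named after their values were seen.

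Counts were scaled by TMM, filtered with filterByExpr (minimum count 10, minimum total 15) and tested with edgeR 4.0.16 (quasi-likelihood, Benjamini-Hochberg FDR) in R 4.3.3. Values per gene on the log2 CPM scale carry a prior count of 2. The script was tested on simulated data first. Alternatives were DESeq2 1.42.0, limma 3.58.1, other filters, scalings, covariates and subsets of libraries, each library left out in turn, and the replicate number as a block. Same-numbered libraries of the 2 genotypes deviated together (correlations 0.145 to 0.405 over 7 pairs, Fosl-2(Tg) 8 having no partner). Differently numbered libraries were not compared in this way, so these correlations cannot show that a pairing follows the numbers. The block is thus a pairing taken from the titles, not from a stated litter or day. No libraries were duplicates. Precision was set by total counts of 9645598 to 42646727 per library. A few genes are not reported here.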

Additional observations from a re-analysis of the deposited data

Results flagged for a closer look

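In 176 groups of single-gene values from 1 genotype, 8 held a library that lay far from the others by Dixon's criterion, which chance gives in about 1 of 20 groups. In Fosl-2(Tg) mice these were Mgl2 in library 1 (5.11 CPM), Parp14 in library 1 (16.0 CPM), Trim30a in library 2 (3.18 CPM) and Clec10a in library 3 (2.37 CPM). In WT mice they were Isg15 in library 3 (0.653 CPM), H2-Ab1 in library 4 (3.16 CPM), Litaf in library 4 (19.2 CPM) and Ifi204 in library 7 (14.2 CPM).

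Of the 88 genes compared, 35 had a genotype effect that differed between the early and the established cohort (interaction FDR of edgeR's quasi-likelihood test at most 0.05). Of all 16082 genes tested, 7.43% did so. Many of the 88 were named for a small early p, and the difference contains that same early effect. The count is therefore no result about these genes. The differences below are the established minus the early log2 fold change, and 11 of the 13 established mice were female while all early mice were male. Among interferon-inducible genes the difference was 1.41 for Oas2, 1.44 for Oasl2, 1.71 for Oas1b, 1.11 for Trim30a, 0.92 for Parp14, 1.30 for Gbp7, 1.68 for Gbp3, 0.81 for Mndal, 1.39 for Ifi204 and 1.52 for Ifi207. For the class I processing genes it was 1.19 for Tap1, 1.34 for Psmb8 and 1.56 for Psmb9. Among macrophage, lectin and Fc receptor genes it was 2.83 for Mgl2, 0.97 for Adgre1, 1.26 for Cd300a, 1.05 for Cd53, 1.00 for Mrc1, 1.44 for Cd163, 0.87 for F13a1, 1.76 for Clec10a, 1.85 for Siglec1 and 1.77 for Fcgr2b.

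For matrix and tendon genes the difference was negative, at -1.95 for Col11a1, -3.04 for Col1a1, -1.53 for Pcolce, which enhances procollagen processing, -1.94 for Tnmd and -1.41 for Scx. For the remaining genes it was 0.88 for Ctsc, 0.41 for Nrp1, 2.19 for Apod, 5.33 for Hbb-bs, -0.39 for 2510009E07Rik, -0.73 for Hsd17b7 and -0.51 for Atf4.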

How the results depend on the processing

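The 6 early genes became 25 with DESeq2, 10 with voom quality weights and 11 with the replicate block, which kept Ctsc, Mgl2, Oas2 and Pcyt1a. They became 68 with a term for the run of library numbers and 165 within numbers 49 to 57. The count was 0 within numbers 58 to 63 (239 lower and 63 higher at an unadjusted p under 0.05), within TMM factors below 1 (239 and 147) and of at least 1 (523 and 524), with erythroid and keratinocyte covariates (178 and 45) and with the pan-macrophage covariate (756 and 838), and some of these fits held fewer libraries. Leaving out 1 library gave 4 to 12 genes, with 12 without WT 4, and 9 to 23 genes without overlap. Within TMM factors below 1, a split chosen after seeing the data, the medians were -0.14 (interferon), -0.12 (pan-macrophage), -0.08 (resident macrophage), -0.14 (lectin) and 0.02 (collagens). The collagen median was 0.03 within factors of at least 1, 0.01 with the factor as a covariate (interferon -0.30, lectin -0.17) and, with reversed sign, -0.18 within numbers 58 to 63 and -0.06 with erythroid and keratinocyte covariates. Those covariates gave -0.15 (pan-macrophage) and -0.05 (lectin). The pan-macrophage covariate gave -0.18 (interferon), -0.06 (lectin) and 0.01 for its own list, which it removes by construction. The other causes were not tested. The interaction count of 1195 became 725 without the 2 established males. The lipid median moved by less than the spread between replicates in every alternative. Genes near 1 CPM, such as Oas1b and Isg15, are limited by depth.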
